A study of Homo sapiens with 10 samples.

Results

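The genes described here encode the MHC class I molecules in 3 cell lines of human esophageal squamous cell carcinoma (ESCC): the heavy chain genes HLA-B, HLA-C, HLA-E, HLA-F and HLA-G, and B2M, which encodes the light chain beta-2-microglobulin. They were taken by gene name from every table, and rows that repeated a name in the knockdown tables were summed. The 6 genes were found among 36545 genes of the IFN-β tables and 22554 genes of the knockdown tables. Other class I heavy chain genes were not analysed here.

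RNA had been sequenced from 10 libraries of ESCC lines at passages 5 to 10. The IFN-β experiment used KYSE30, KYSE180 and KYSE450, with 1 library per line from cells kept for 72 h with IFN-β, a type I interferon, at 1000 IU/ml and 1 library from cells that received buffer alone and are labelled untreated. The knockdown experiment used KYSE30 and KYSE180, with 1 library per line after lentiviral knockdown of IRF1-AS and 1 vector control library. IRF1-AS is a non-coding RNA made from the strand opposite the gene of the transcription factor IRF1. None of the 4 knockdown libraries is labelled as treated with IFN-β. Each arm of a line is 1 library, so the lines are the replicates. The p-values refer to how the difference between arms varies from line to line, and the fits over all genes also draw on the spread of other genes.

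MHC class I molecules carry peptides from inside the cell to its surface. A heavy chain folds around a peptide in the endoplasmic reticulum and as a rule leaves it paired with beta-2-microglobulin. HLA-B and HLA-C are classical, highly polymorphic heavy chains read by cytotoxic T cells and, for HLA-C in particular, by receptors of natural killer cells. HLA-E shows leader peptides of other class I chains to natural killer cell receptors, HLA-G is known from the placental trophoblast as a ligand of inhibitory receptors, and HLA-F is a less studied non-classical chain. Interferons raise class I transcription through an interferon response element in the promoter, and the class I transactivator NLRC5 acts at the neighbouring SXY module, which includes the X2 and Y boxes.

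Promoter sequences are shown because the members differ in which of the letter motifs searched for these elements the reference matches. RefSeq windows of 250 bases before to 50 bases after a transcription start (GRCh38.p14) were given for 5 of the 6 members. HLA-E has no entry. Below are the 250 bases before the start, 5′ to 3′ on the gene's strand, with every motif match in capitals. HLA-B is shown as the heavy chain gene with the largest fitted response to IFN-β, HLA-G as the member that missed the threshold, and B2M as the light chain on another chromosome. HLA-G missed it at a fitted log2 fold change of 1.59, above the 1.53 of HLA-E, which passed. Whether a motif bears on a member's response was not tested. The HLA-B stretch is chr6:31357180-31357429 on the minus strand, that of HLA-G is chr6:29827575-29827824 on the plus strand and the last of its 3 RefSeq windows, and that of B2M is chr15:44711267-44711516 on the plus strand.
HLA-B: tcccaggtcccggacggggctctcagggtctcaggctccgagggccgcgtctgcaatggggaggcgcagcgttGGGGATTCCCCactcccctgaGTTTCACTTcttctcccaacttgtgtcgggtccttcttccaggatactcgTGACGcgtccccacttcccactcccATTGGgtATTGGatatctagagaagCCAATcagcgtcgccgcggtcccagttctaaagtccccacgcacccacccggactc
HLA-G: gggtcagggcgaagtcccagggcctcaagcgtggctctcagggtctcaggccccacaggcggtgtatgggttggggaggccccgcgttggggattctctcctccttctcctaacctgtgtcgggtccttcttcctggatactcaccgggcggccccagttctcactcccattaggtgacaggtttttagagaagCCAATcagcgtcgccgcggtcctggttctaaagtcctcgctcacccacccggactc
B2M: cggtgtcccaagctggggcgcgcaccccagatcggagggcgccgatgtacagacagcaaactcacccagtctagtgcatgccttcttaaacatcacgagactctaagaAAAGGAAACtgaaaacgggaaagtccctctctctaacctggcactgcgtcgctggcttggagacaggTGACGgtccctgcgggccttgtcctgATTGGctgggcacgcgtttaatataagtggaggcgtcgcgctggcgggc
The interferon response elements of HLA-C and HLA-F are shown in 60-base stretches at chr6:31272210-31272269 on the minus strand and chr6:29723252-29723311 on the plus strand.
HLA-C: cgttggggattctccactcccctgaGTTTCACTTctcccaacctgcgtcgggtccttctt
HLA-F: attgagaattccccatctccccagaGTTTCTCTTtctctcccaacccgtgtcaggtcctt

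The motifs were searched on both strands. AANNGAAAC is the core shared by interferon response elements, GGGGANTCC is of the NF-kB type, TGACG is the X2 half-site and ATTGG the Y box. The interferon core was matched once in HLA-B (positions -156 to -148 from the start), HLA-C (-152 to -144), HLA-F (-157 to -149) and B2M (-142 to -134), and in none of the 3 HLA-G windows. In the 3 heavy chain genes the match lay on the strand opposite to the gene and in B2M on the gene's own strand. The X2 half-site was matched once each in HLA-B, HLA-C and B2M. The letters of the Y box were counted on either strand and at any position, so a match need not be the Y box of the SXY module. They were matched 3 times in HLA-B, 4 times in HLA-C, 2 times in HLA-F and once each in HLA-G and B2M. On the gene's strand HLA-B, HLA-C and HLA-F had a match between positions -82 and -76, where HLA-G had none. The HLA-G match lay on the opposite strand at -56 to -52, where HLA-B and HLA-C also had one. The NF-kB type motif was matched in HLA-B alone among these windows, by 2 overlapping matches on opposite strands of 1 stretch that runs from position -177 to -167.

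Of all 35116 RefSeq promoter windows, 5.21% held the interferon core, 1.53% the NF-kB type motif, 24.6% the X2 half-site and 34.6% the Y box. HLA-B, HLA-C and B2M each held the interferon core, the X2 half-site and the Y box, as did 0.390% of all windows. Over the 250 bases, HLA-B was identical to HLA-C at 89.0% of aligned positions, to HLA-F at 80.4% and to HLA-G at 72.5%, while the 4 heavy chain promoters were identical to that of B2M at 45.6% to 48.6%. A match is a run of letters in the reference genome, and the lines' own alleles were not read. A site that differs from the searched letters was not counted, so a missing match does not show that an element is absent.

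**Figure D1:**
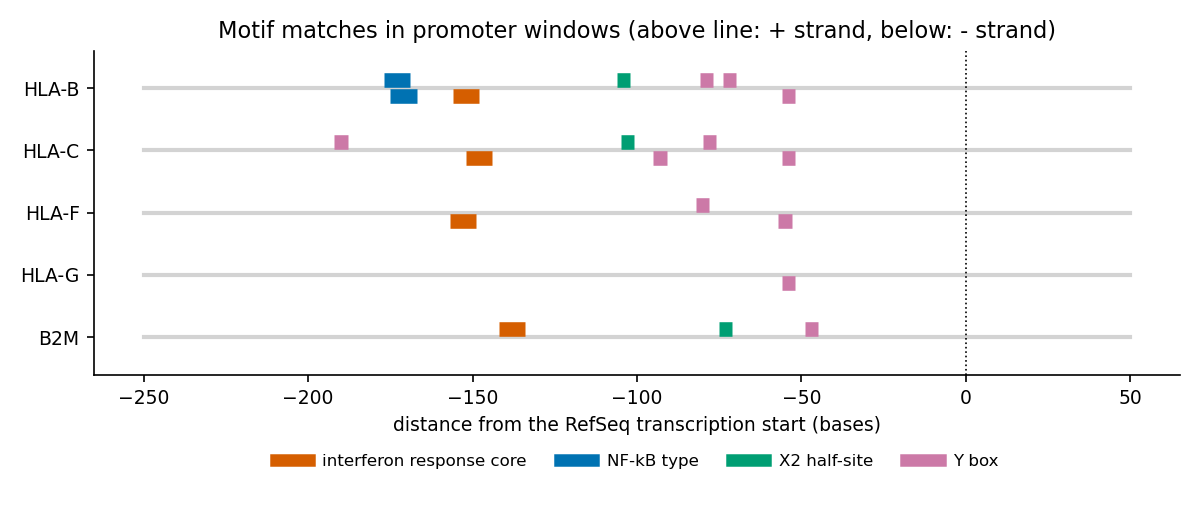
Positions of motif matches from 250 bases before to 50 bases after the RefSeq transcription start in 5 promoters (the last of 3 windows for HLA-G), with matches on the gene's strand above each line and those on the opposite strand below it. HLA-B, HLA-C, HLA-F and B2M each have 1 interferon response core between positions -157 and -134. HLA-G has 1 match of the Y box letters, on the strand opposite to the gene.

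The heavy chain genes lie together on chromosome 6 in the RefSeq annotation of GRCh38.p14: HLA-F (ENSG00000204642) at chr6:29723434-29738532, HLA-G (ENSG00000204632) at chr6:29826474-29831021 and HLA-E (ENSG00000204592) at chr6:30489509-30494194 on the plus strand, and HLA-C (ENSG00000204525) at chr6:31268749-31272092 and HLA-B (ENSG00000234745) at chr6:31353875-31357179 on the minus strand. B2M (ENSG00000166710) is at chr15:44711517-44718145 on the plus strand. Their transcripts share stretches of sequence, so reads of one gene can be counted for another. Of all 50-base stretches in the main GENCODE 29 transcript, 6.79% of those of HLA-C, 5.13% of HLA-E, 4.38% of HLA-G, 2.54% of HLA-B and 1.70% of HLA-F occur in a transcript of another gene, and 0% of those of B2M. At 100 bases the shared part was at most 1.01%, in HLA-G.

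The deposited values are headed FPKM, fragment numbers corrected for gene length and library size, and the depth of the libraries is unknown. Each IFN-β table has a near-constant total over named genes (988427 to 993533), so these levels may have been rescaled to a fixed sum and need not be FPKM in the strict sense. In the IFN-β experiment the ratios of all genes as deposited were centred at a log2 ratio of 0.41 in KYSE450, against -0.01 in KYSE30 and -0.02 in KYSE180, so folds and tests use values scaled by the median of ratios. Levels are given in FPKM as deposited. Among interferon-responsive genes used to check the treatment, IFI27, ISG15 and IFIT1 were called higher with IFN-β, and MX1 was higher in each line without passing the test (adjusted p = 0.517, limma). The 7 markers listed as squamous, which include the general epithelial genes CDH1 and EPCAM, summed to 306 FPKM or more in every library of this experiment. In the KYSE30 libraries of this experiment the keratins were low, with KRT5 at 1.37, KRT14 at 2.83 and KRT6A at 6.33 FPKM with IFN-β. Untreated KYSE30 had 2.91, 2.61 and 4.34 FPKM of these, and its sum came largely from EPCAM (114.17), SFN (101.96) and CDH1 (54.12 FPKM). In KYSE30 the sum therefore does not show squamous identity. The KYSE30 vector control of the knockdown experiment was listed at 117 FPKM of KRT5, 29.7 of KRT14 and 85.4 of KRT6A. The cause of this difference between the experiments was not tested. Markers of leukocytes summed to at most 1.74, of fibroblasts to at most 1.34 and of endothelium to at most 1.18 FPKM. None of the 7 markers listed as squamous was called, with log2 fold changes of -0.89 ± 0.13 for KRT5, -0.71 ± 0.27 for KRT14 and 0.18 ± 0.13 for EPCAM (limma adjusted p = 0.0803, 0.499 and 0.648).

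IFN-β was followed by higher RNA of HLA-B, HLA-C, HLA-E, HLA-F and B2M, which rose in the test across all genes, and the 6 members were higher with IFN-β in each of the 3 lines. The fold ran from 12.1 to 17.3 for HLA-B, from 5.67 to 8.97 for HLA-C, from 5.54 to 13.2 for HLA-F, from 5.24 to 6.33 for B2M and from 2.42 to 3.76 for HLA-E. HLA-G was 1.77-fold to 6.68-fold higher and did not pass. Being higher in every line was shared by 16.8% of the 12428 genes tested, and passing the threshold of an adjusted p of 0.05 in the upward direction by 0.402% of them (50 genes). A log2 ratio of at least 1 in every line, counted for 5 of the 6 members, was shared by 0.676% of the genes tested. The share of all genes whose groups did not overlap was not counted, so statements on overlap describe the members' values only. In bulk RNA a change in the RNA of each cell and a change in the share of cells that express a gene cannot be told apart.

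HLA-B, a classical heavy chain, reached 584.95 FPKM in KYSE30, 1237.38 in KYSE180 and 417.30 in KYSE450 with IFN-β, against 48.32, 72.70 and 17.36 FPKM in the untreated cells of the same lines. The lowest treated library was above the highest untreated one, and KYSE180 was the highest line in both arms. The log2 fold change on the scaled FPKM + 1 scale was 3.90 ± 0.15 (SE, 3 lines, limma adjusted p = 0.000327), 17th in size among rises of all genes tested. HLA-C reached 459.86, 909.42 and 229.82 FPKM in KYSE30, KYSE180 and KYSE450 with IFN-β, against 81.25, 103.19 and 20.95 FPKM untreated. Here too the groups did not overlap, and KYSE450 was the lowest line in both arms. The change was 2.85 ± 0.16 log2 units (limma adjusted p = 0.00179).

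Among the non-classical chains, HLA-E had 206.15, 375.73 and 109.66 FPKM in KYSE30, KYSE180 and KYSE450 with IFN-β, against 54.97, 140.05 and 32.09 FPKM untreated. Its groups overlapped, since untreated KYSE180 lay above treated KYSE450, although each line was higher with IFN-β. The log2 fold change of 1.53 ± 0.16 (limma adjusted p = 0.0209) was the smallest of the members that passed, and its adjusted p moved to 0.0710 without KYSE30, 0.0511 without KYSE180 and 0.199 with no filter on low values. HLA-F had 39.66, 93.55 and 61.69 FPKM with IFN-β, against 3.0, 9.23 and 7.87 FPKM untreated, and its groups did not overlap. On the log2 scale it was 2.98 ± 0.21 higher (limma adjusted p = 0.00604), and it missed the threshold with no filter on low values (adjusted p = 0.0820).

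HLA-G was the scarcest member, at 5.73, 21.97 and 9.82 FPKM in KYSE30, KYSE180 and KYSE450 with IFN-β, against 0.86, 4.06 and 3.93 FPKM untreated. The groups did not overlap in the values as deposited, and KYSE450 had the smallest ratio between its arms. Its log2 fold change was 1.59 ± 0.30 with a 95% interval from 0.85 to 2.33, and the adjusted p of 0.193 (limma) missed the threshold. Without KYSE450 it was 2.04 ± 0.19 (limma adjusted p = 0.0383), and HLA-G was also called in the values as deposited, where 1.55% of all genes were called higher. For 10827 of the 12428 genes the fit of the values as deposited replaced the gene's own spread with a spread shared across genes, and the 6 members are among them.

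B2M, the light chain shared by all class I molecules, was the most abundant member, with 2181.78, 4697.89 and 2496.50 FPKM in KYSE30, KYSE180 and KYSE450 with IFN-β, against 345.70, 767.83 and 337.13 FPKM untreated. The groups did not overlap, and the fold was alike in the 3 lines. In the fit B2M was 2.56 ± 0.14 log2 units higher (limma adjusted p = 0.00172). Its level was at or above that of 99.7% to 99.9% of the genes tested in the treated libraries and 97.9% to 99.0% in the untreated ones.

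**Figure D2:**
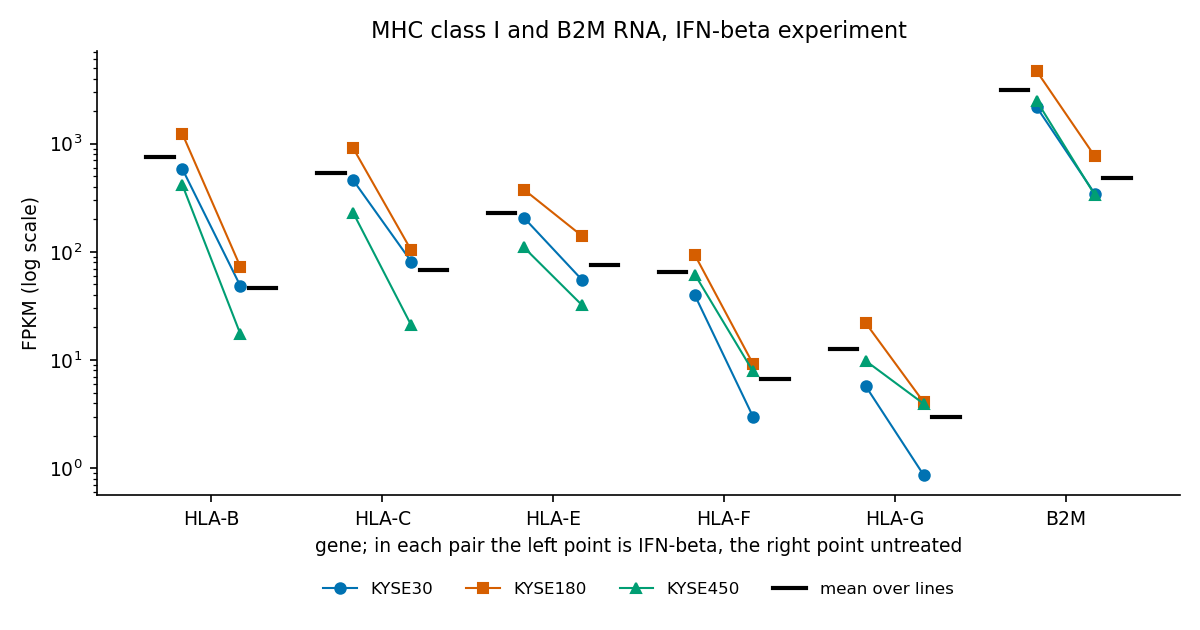
FPKM as deposited (log axis) of the 6 members in the IFN-β experiment, with the IFN-β library left of the untreated library of the same line and black bars for the mean over 3 lines. Each of the 18 line segments falls from left to right, least steeply for HLA-G in KYSE450 (9.82 and 3.93 FPKM) and HLA-E in KYSE180 (375.73 and 140.05 FPKM).

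The order of the members changed with treatment. FPKM are per length, so levels are set side by side within a library. Reads counted for another class I gene can shift this order, and in the knockdown tables HLA-B was above HLA-E in every library. With IFN-β the order was B2M, HLA-B, HLA-C, HLA-E, HLA-F and HLA-G in all 3 lines. Untreated KYSE180 and KYSE450 had B2M, HLA-E, HLA-C, HLA-B, HLA-F and HLA-G in falling order, and untreated KYSE30 differed by having HLA-C above HLA-E. Over lines, HLA-B averaged 747 ± 433 FPKM with IFN-β and 46.1 ± 27.7 untreated, HLA-C 533 ± 346 and 68.5 ± 42.6, and HLA-E 231 ± 135 and 75.7 ± 56.9 (SD, n = 3 lines each). Untreated, the ranges of these 3 genes overlapped. With IFN-β the range of HLA-C overlapped those of HLA-B and HLA-E, while the lowest HLA-B value, 417.30 FPKM, was above the highest HLA-E value, 375.73 FPKM. KYSE180 was the highest line and KYSE450 the lowest for these 3 genes in both arms. HLA-F averaged 65.0 ± 27.1 FPKM with IFN-β and 6.70 ± 3.28 untreated, HLA-G 12.5 ± 8.45 and 2.95 ± 1.81, and B2M 3125 ± 1371 and 484 ± 246 (SD, n = 3 lines each).

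HLA-B took up a larger share of the heavy chain RNA with IFN-β, and HLA-E a smaller one. HLA-B made up 45.1% of the summed FPKM of the 5 heavy chain genes in KYSE30, 46.9% in KYSE180 and 50.4% in KYSE450 with IFN-β, against 25.6%, 22.1% and 21.1% untreated. That is 24.5 ± 4.90 percentage points more (SD, 3 of 3 lines). HLA-E made up 15.9%, 14.2% and 13.2% with IFN-β, against 29.2%, 42.5% and 39.0% untreated, a difference of -22.5 ± 8.05 percentage points (3 of 3 lines lower). These shares do not depend on how a library was scaled. The exact sign-flip permutation test gave p = 0.25 for both, the smallest two-sided p that 3 lines allow, so no share could pass 0.05.

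The shares of the other heavy chain genes moved less. HLA-C held 35.5%, 34.5% and 27.7% with IFN-β in KYSE30, KYSE180 and KYSE450, against 43.1%, 31.3% and 25.5% untreated, which is lower in KYSE30 and higher in the other lines. HLA-F held 3.06%, 3.55% and 7.45% with IFN-β, against 1.59%, 2.80% and 9.57% untreated. HLA-G held 0.442%, 0.833% and 1.19% with IFN-β, against 0.456%, 1.23% and 4.78% untreated. KYSE450 thus had the largest HLA-F and HLA-G shares of the 3 lines in both arms, on the lowest summed heavy chain level.

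**Figure D3:**
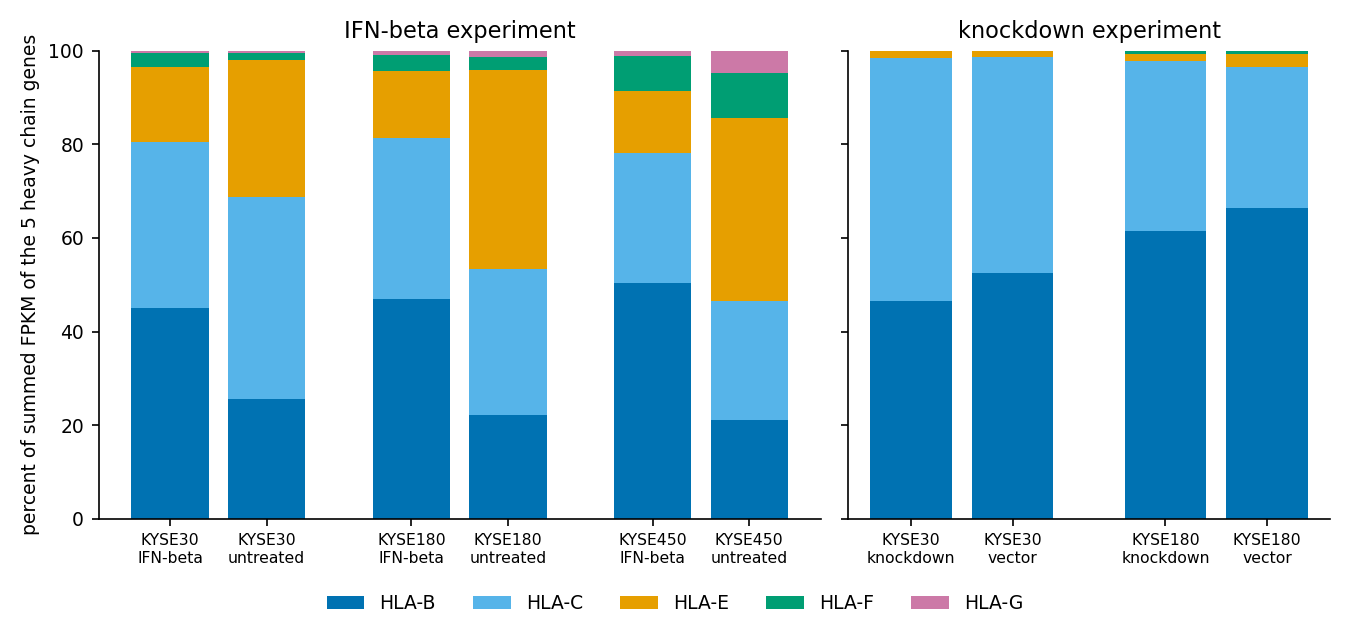
Share of each heavy chain gene in the summed FPKM of the 5 heavy chain genes (percent, stacked to 100), with the IFN-β or knockdown library left of its control in each line. HLA-B takes 45.1% to 50.4% of the treated bars and 21.1% to 25.6% of the untreated bars.

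Relative to B2M, the heavy chain sum was higher with IFN-β in each line. The 5 heavy chain genes summed to 0.594, 0.562 and 0.332 times the B2M FPKM in KYSE30, KYSE180 and KYSE450 with IFN-β, against 0.545, 0.429 and 0.244 times untreated. B2M therefore exceeded the heavy chain sum analysed here in all 6 libraries, most in KYSE450. The log2 ratio was higher with IFN-β by 0.12, 0.39 and 0.44 in the 3 lines, a mean of 0.32 ± 0.17 (SD, exact sign-flip permutation p = 0.25, the smallest possible). Without HLA-B the mean was -0.23 ± 0.08, so the direction of this ratio rested on HLA-B.

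The order of the members' responses was partly shared between lines. On the log2(scaled FPKM + 1) scale, HLA-B had the largest ratio in each line, ahead of HLA-C by 1.05 ± 0.09 (SD, 3 of 3 lines), and HLA-E or HLA-G the smallest. With no pseudocount, HLA-F was ahead of HLA-B in KYSE30, at a fold of 13.2 against 12.1. Of the 15 pairs of members, 11 had the same order in each line, and each of these gave an exact permutation p of 0.25, or 0.341 adjusted over the 15 pairs. HLA-F was ahead of HLA-C by 0.87 in KYSE30 and 0.07 in KYSE180, and behind it by 0.55 in KYSE450, so that their order did not hold beyond the spread between lines.

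**Figure D4:**
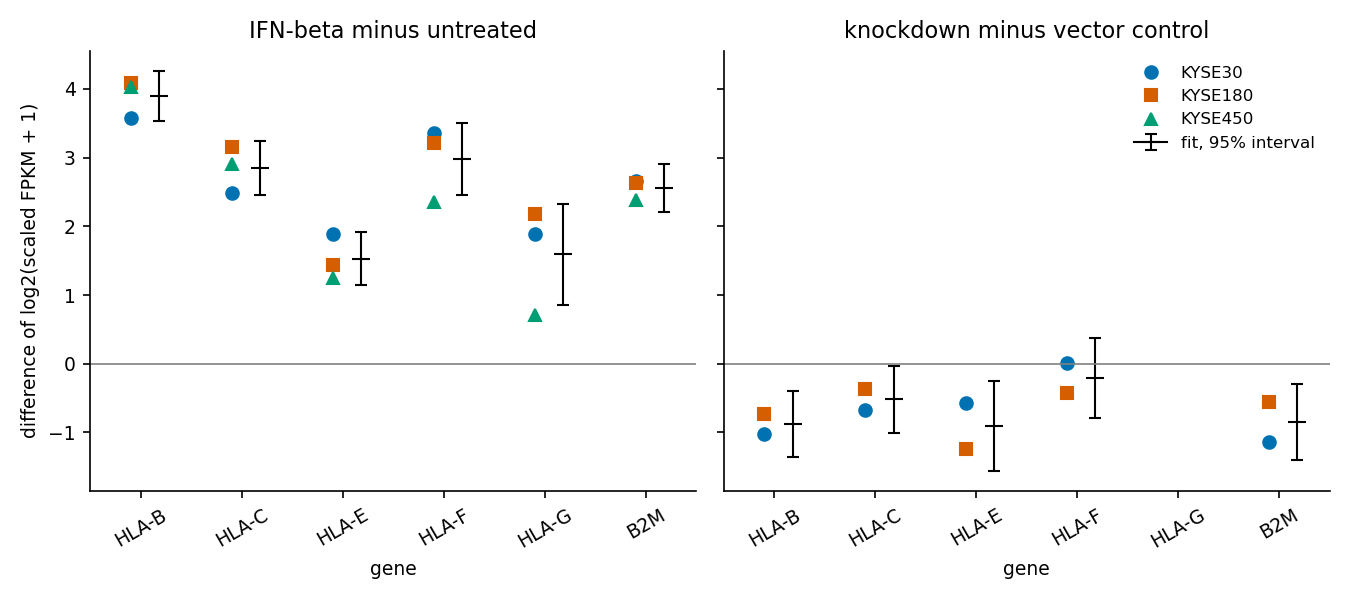
Log2 ratio of each member within a line (points) and the limma estimate with its 95% interval (black), on log2(scaled FPKM + 1), for IFN-β minus untreated on the left and IRF1-AS knockdown minus vector control on the right. In the left panel all points lie above 0, from 0.71 for HLA-G in KYSE450 to 4.09 for HLA-B in KYSE180, and in the right panel, which shows the 5 members tested, the point of HLA-F in KYSE30 (0.01) is the one not below it. HLA-G, listed at 0 throughout the knockdown tables, has no point there.

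Genes that load class I molecules were described beside the members. Of 14 loading and peptide-trimming genes, 3 were called higher, 0 lower, and 12 were higher in each line, with a median log2 fold change of 0.96 against -0.01 for all genes tested. Of all genes tested, 0.402% were called higher and 16.8% were higher in each line. PSMB9, a catalytic subunit of the immunoproteasome, had 34.69, 109.09 and 28.64 FPKM with IFN-β in KYSE30, KYSE180 and KYSE450, against 0.88, 16.20 and 0.18 FPKM untreated (log2 fold change 3.79 ± 0.36, limma adjusted p = 0.0377). TAP2, a subunit of the peptide transporter, had 26.42, 51.75 and 39.14 FPKM against 8.22, 21.87 and 11.33 FPKM untreated (1.35 ± 0.13, limma adjusted p = 0.0142). PSME2, a subunit of the proteasome activator PA28, had 223.47, 608.94 and 189.66 FPKM against 90.11, 295.90 and 70.22 FPKM untreated (1.10 ± 0.14, limma adjusted p = 0.0462). The chaperone gene CANX, named after its values were seen, was the 1 gene of the list lower in each line (log2 fold change -0.14 ± 0.13, limma adjusted p = 0.720).

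Of 15 regulators of class I genes, 3 were called higher, 0 lower, and 8 were higher in each line, with a median log2 fold change of 0.16. NLRC5, the class I transactivator, had 9.88, 8.74 and 8.14 FPKM with IFN-β in KYSE30, KYSE180 and KYSE450, against 1.16, 1.58 and 0.71 FPKM untreated (log2 fold change 2.12 ± 0.15, limma adjusted p = 0.00516). IRF1, a transcription factor that binds interferon response elements, had 19.77, 10.51 and 6.01 FPKM against 7.31, 3.35 and 1.44 FPKM untreated (1.30 ± 0.13, limma adjusted p = 0.0188).

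Other genes whose proteins pair with B2M were not called. Of 8 listed, 2 passed the filter. HFE, a regulator of iron uptake, had a log2 fold change of -0.09 ± 0.20 (limma adjusted p = 0.897). Its log2 ratio was -0.66 in KYSE180, against 0.26 in KYSE30 and 0.14 in KYSE450. MR1, which presents vitamin B metabolites, had -0.06 ± 0.15 (limma adjusted p = 0.903). The neonatal Fc receptor gene FCGRT, named after its values were seen, was at 28.03 FPKM with IFN-β and 27.53 untreated in KYSE180, and at 0.11 FPKM or less in the other lines. CD1A, CD1B and CD1E were listed at 0 in all 6 libraries.

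Of the class I pseudogenes, 3 of 7 were listed and 2 were tested, neither of them called. HLA-H had 18.29, 134.82 and 46.99 FPKM with IFN-β in KYSE30, KYSE180 and KYSE450, against 2.93, 12.66 and 12.54 FPKM untreated (log2 fold change 2.33 ± 0.37, limma adjusted p = 0.163). HLA-J had at most 1.81 FPKM (log2 fold change 0.76 ± 0.17, limma adjusted p = 0.256). HLA-H was thus listed at higher FPKM than HLA-G in each library, and the part of reads from other class I genes in either was not tested.

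The 5 genes whose log2 ratios in the 3 lines lay nearest to the median of the members (2.57 in KYSE30, 2.89 in KYSE180 and 2.37 in KYSE450), among 8955 genes that averaged at least 5 FPKM, were ISG20, PLSCR1, H1F0, IFIT5 and NLRC5. Their root-mean-square distances from it were 0.350, 0.417, 0.528, 0.590 and 0.610 log2 units. The nearest, the exonuclease gene ISG20, had 9.61, 15.41 and 14.30 FPKM with IFN-β, against 1.58, 1.54 and 0.99 FPKM untreated. Likeness was taken over 3 lines only.

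In the knockdown experiment, no member and 0% of the 12799 genes tested passed an adjusted p of 0.05 in either direction (limma, 850 genes at an unadjusted p under 0.05). The transcript targeted, listed under its older symbol C5orf56, had 3.04 FPKM in KYSE30 and 0.948 in KYSE180 after knockdown, against 6.86 and 1.08 FPKM in the vector controls. Its difference was therefore large in KYSE30 and small in KYSE180. HLA-B, HLA-C, HLA-E and B2M had lower values after knockdown in both lines, which 27.8% of all genes tested also had. These 4 genes had an unadjusted p under 0.05 in the downward direction, as did 4.69% of the genes tested.

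The knockdown tables give most of these genes several rows, 1 for each copy of the gene on the alternate haplotypes of the genome build. HLA-B had 6 such rows, HLA-C, HLA-E and HLA-F 7 each, HLA-G 8 and B2M 1. Which copy received the fragments differed between lines. The highest HLA-C row held 35.3% of the sum after knockdown and 35.5% in the vector control in KYSE30, and 76.0% after knockdown and 80.3% in the vector control in KYSE180. The sums over rows and the IFN-β tables were made by different procedures. Where levels or shares of both are set side by side, the difference between them was not tested. The genes TAP1, PSMB8 and PSMB9 of the same chromosome region were listed at 0 in all 4 knockdown libraries, so a 0 there may be a failed estimate.

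HLA-B had 170.4 FPKM in KYSE30 and 163.4 in KYSE180 after knockdown, against 333.3 and 273.9 FPKM in the vector controls. The groups did not overlap, and the share of all genes without overlap was not counted here either. Of its 6 rows, 5 were lower after knockdown in each line. The log2 fold change was -0.88 ± 0.19 with a 95% interval from -1.36 to -0.40 (SE, 2 lines, limma unadjusted p = 0.00489, adjusted p = 0.668). HLA-C had 190.2 FPKM in KYSE30 and 96.0 in KYSE180 after knockdown, against 293.7 and 123.9 FPKM in the vector controls. The lines differed more than the arms, and all 7 rows in KYSE30 but 5 of 7 in KYSE180 were lower. In the fit the change was -0.52 ± 0.19 log2 units (limma unadjusted p = 0.0410, adjusted p = 0.736).

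B2M, with a single row, had 113.8 FPKM in KYSE30 and 191.6 in KYSE180 after knockdown, against 242.8 and 283.5 FPKM in the vector controls, without overlap. The log2 fold change was -0.85 ± 0.22 (limma unadjusted p = 0.0106, adjusted p = 0.703), and -0.55 without KYSE30, with no test. HLA-E had 5.63 and 4.43 FPKM in KYSE30 and KYSE180 after knockdown, against 8.49 and 11.98 FPKM in the vector controls. In KYSE30 only 2 of its 7 rows were lower and 3 were higher. Its fitted log2 fold change was -0.91 ± 0.26 (limma unadjusted p = 0.0154, adjusted p = 0.703). With the highest row in place of the sum it was -0.50 ± 0.24 (limma adjusted p = 0.791), and without KYSE180 it was -0.54, with no test.

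HLA-F was near the lower end of the tables, at 0.0986 FPKM in KYSE30 and 1.58 in KYSE180 after knockdown, against 0.0885 and 2.48 FPKM in the vector controls. It passed the filter through KYSE180 alone. Its log2 fold change was -0.21 ± 0.23 with a 95% interval from -0.78 to 0.37 (limma adjusted p = 0.896). HLA-G was listed at 0 in all 8 rows of all 4 libraries and was not tested, while the IFN-β tables list it above 0 in every library.

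**Figure D5:**
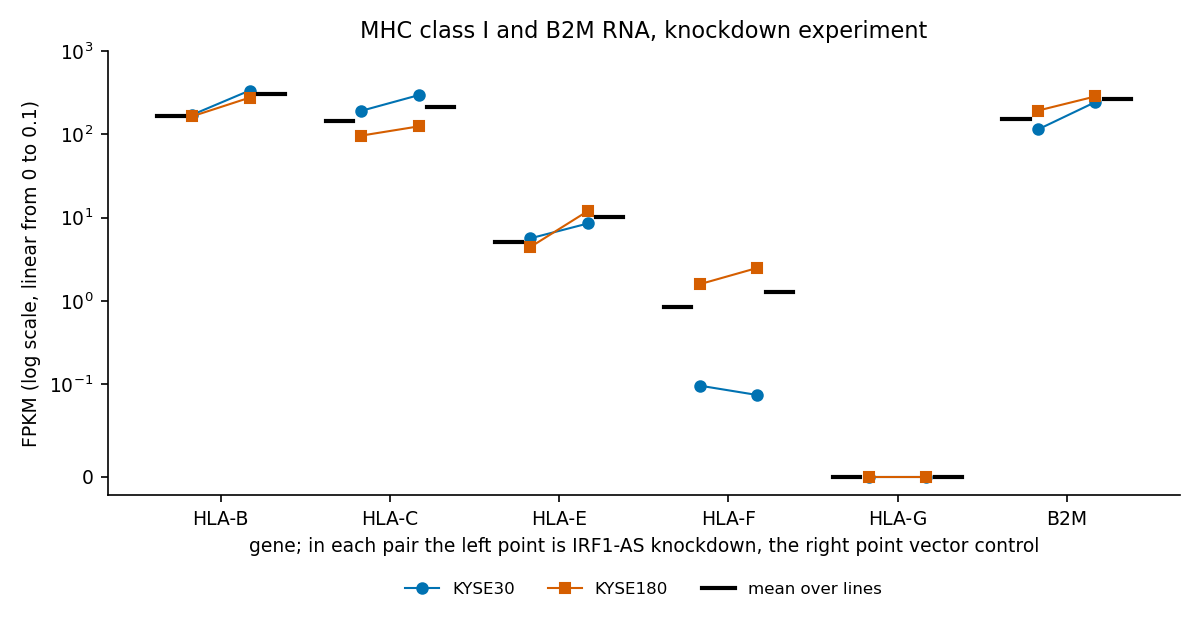
FPKM of the 6 members in the knockdown experiment, summed over rows that repeat a gene name (log axis, linear from 0 to 0.1), with the IRF1-AS knockdown library left of the vector control of the same line and black bars for the mean over 2 lines. HLA-B, HLA-C, HLA-E and B2M are lower after knockdown in both lines, and HLA-G is listed at 0 throughout.

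After knockdown HLA-B held a smaller share of the heavy chain RNA and HLA-C a larger one in both lines. HLA-B held 46.5% in KYSE30 and 61.6% in KYSE180 after knockdown, against 52.4% and 66.4% in the vector controls. HLA-C held 51.9% and 36.2% after knockdown, against 46.2% and 30.1% in the vector controls. HLA-B was thus 5.40 ± 0.76 percentage points lower and HLA-C 5.91 ± 0.27 higher (SD, both lines), and with 2 lines the exact sign-flip permutation test cannot go below 0.5. The heavy chain sum was 3.22 and 1.39 times the B2M FPKM after knockdown in KYSE30 and KYSE180, against 2.62 and 1.45 times in the vector controls. In these tables the heavy chain sum exceeded B2M in all 4 libraries. The HLA-E share was 1.54% in KYSE30 and 1.67% in KYSE180 after knockdown, against 1.34% and 2.91% in the vector controls. Untreated libraries of the IFN-β experiment had HLA-E shares of 29.2% and 42.5% in these lines. The cause of this difference between the experiments was not tested.

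Genes of the class I pathway were not called after knockdown either. Being lower in both lines was shared by 27.8% of all genes tested. Of 11 loading genes tested, 7 were lower in both lines and 0 higher. TAP2 had 0.919 and 1.68 FPKM in KYSE30 and KYSE180 after knockdown, against 1.58 and 4.77 FPKM in the vector controls (log2 fold change -0.78 ± 0.27, limma adjusted p = 0.731), and TAPBPL and TAPBP, an editor and a chaperone of peptide loading, had -0.50 ± 0.28 and -0.48 ± 0.27 (limma adjusted p = 0.804 and 0.807). Of 15 regulators, 5 were lower and 2 higher in both lines. IRF9, a DNA-binding subunit of the interferon-activated complex, had 3.0 and 6.83 FPKM after knockdown, against 4.33 and 25.5 FPKM in the vector controls (-1.10 ± 0.35, limma adjusted p = 0.728). IRF1 had 5.88 and 1.20 FPKM, against 31.1 and 1.83 FPKM in the vector controls (-1.31 ± 0.47, limma adjusted p = 0.736), a difference mostly of KYSE30, and NLRC5 had -0.46 ± 0.26 (limma adjusted p = 0.807).

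Of the 4 interferon-responsive genes, 4 were lower in both lines, which 27.8% of all genes tested also were, and 0 were called. IFIT1 had 58.5 and 4.70 FPKM in KYSE30 and KYSE180 after knockdown, against 116 and 14.9 FPKM in the vector controls (log2 fold change -1.25 ± 0.21, limma adjusted p = 0.560). ISG15 had 346 and 23.7 FPKM, against 1073 and 32.6 FPKM in the vector controls (-1.06 ± 0.33, limma adjusted p = 0.728), and IFI27 had 3.52 and 2.69 FPKM, against 4.59 and 26.0 FPKM (-1.61 ± 0.60, limma adjusted p = 0.736). The vector control of KYSE30 was the library with the highest ISG15 of the 4. Of the 7 markers listed as squamous, 0 were called, and 2 were lower and 2 higher in both lines. KRT14 had 13.6 and 1683 FPKM in KYSE30 and KYSE180 after knockdown, against 29.7 and 3616 FPKM in the vector controls (-1.11 ± 0.18, limma adjusted p = 0.560). TP63, a transcription factor of squamous cells, had 21.3 and 28.7 FPKM, against 33.6 and 39.6 FPKM in the vector controls (-0.57 ± 0.19, limma adjusted p = 0.728). KRT5 had 228 and 3285 FPKM, against 117 and 3038 FPKM in the vector controls (log2 fold change 0.51 ± 0.25, limma adjusted p = 0.795). Markers of leukocytes summed to at most 0.727 FPKM, of endothelium to at most 0.873 and of fibroblasts to at most 5.41, nearly all of it COL1A1. The part of the interferon-responsive and squamous genes in the members' values was not tested. Of the B2M partners, MR1, FCGRT and HFE were tested and had log2 fold changes of 0.27 ± 0.27, -0.15 ± 0.23 and 0.08 ± 0.30 (limma adjusted p = 0.879, 0.927 and 0.979).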

How the data were processed

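Per the file headers, each library's deposited table holds FPKM. TopHat, HTSeq and the hg38 build are named, with no version, in the submitters' processing notes. The sources used here give no annotation, strand setting or depth. FPKM of named genes sum to 988427 to 993533 in the IFN-β tables and to 399081 to 425340 in the knockdown tables, so the experiments were tested apart. Precision per library is unknown, and replicates are cell lines.

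Rows that repeated a gene name were summed. Genes with 1 FPKM in at least 3 (IFN-β) or 2 (knockdown) libraries were kept, scaled by median-of-ratios size factors, taken as log2(value + 1), and tested in R 4.3.3 by limma 3.58.1 with its trend and robust settings (statmod 1.5.0), cell line as block and Benjamini-Hochberg adjustment over all genes tested. The pseudocount of 1 FPKM understates the change of low genes. Libraries of 1 line pair the arms, and their deviations from the group means correlated at 0.910, 0.841 and 0.876 in KYSE30, KYSE180 and KYSE450 (IFN-β experiment) and 0.843 (knockdown). The fit was tested on simulated data with known changes. It recovered 100% of genes changed by 1 log2 unit among 12281 genes in the IFN-β design and 99% among 12631 genes in the knockdown design. The simulation gave every gene the same spread and changed only genes above a minimum level. It therefore does not give the share of real changes that the fit can find. Ratios and shares used exact sign-flip tests over lines. Promoters and positions come from RefSeq (GRCh38.p14) and transcripts from GENCODE 29. Global alignments used Biopython 1.88.

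The members, the lists of loading genes, regulators, B2M partners, pseudogenes, treatment-check genes and markers, and the tests were chosen with earlier results of these data known. From each list the text names up to 4 called genes with the largest log2 fold change, or the 3 with the smallest unadjusted p where none was called. A gene that the rule names is not reported here. Alternatives covered scaling, pseudocount, filter, block, the robust option, each line left out and, for repeated rows, the highest row in place of the sum.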

Additional observations from a re-analysis of the deposited data

Results flagged for a closer look

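A few values ran in opposite directions in different cell lines, and none of these differences between lines was tested, since each line has 1 library per arm. After knockdown, the log2 ratio of HLA-F was 0.01 in KYSE30 and -0.42 in KYSE180, which differ by 0.432, and HLA-F was at 0.0986 FPKM or less in both KYSE30 libraries. The heavy chain to B2M log2 ratio was higher after knockdown by 0.30 in KYSE30 and lower by -0.07 in KYSE180, a difference of 0.369. The share of HLA-E among heavy chain genes differed between those lines by 1.44 percentage points and that of HLA-F by 0.0182, with opposite signs.

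With IFN-β, the share of HLA-C was -7.65 percentage points against untreated cells in KYSE30 and 3.13 and 2.26 points in KYSE180 and KYSE450, a range of 10.8 points. The share of HLA-F was 1.47 and 0.74 points higher in KYSE30 and KYSE180 and stood at -2.13 points in KYSE450, a range of 3.59 points.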

How the results depend on the processing

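All 97 recomputed fold changes of members kept their direction, although leaving out the block or the robust option cannot change them. HLA-F after knockdown, with a log2 ratio of 0.01 in KYSE30, was not recomputed without KYSE180. The count of members called with IFN-β was 5 in the fit as reported, 3 with no filter on low values and 0 with no replicate block, and 4 to 6 when 1 line was left out. Without the block, the log2 fold changes of HLA-B (3.90), HLA-C (2.85), HLA-E (1.53), HLA-F (2.98) and B2M (2.56) are the same by construction but missed the threshold, since the spread between lines enters the error. With no filter, HLA-E (1.53) and HLA-F (2.98) missed it, and HLA-G passed in the values as deposited (1.72). Over all genes, 50 were called as reported, 237 as deposited, 13 with no filter, 13 with no block, and 33 to 82 with 1 line left out. The cause of the changes with the filter and with the line left out was not tested.

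With 1 line left out, the IFN-β log2 fold change ran from 3.81 to 4.06 for HLA-B, 2.71 to 3.03 for HLA-C, 1.34 to 1.66 for HLA-E, 2.79 to 3.29 for HLA-F, 1.29 to 2.04 for HLA-G and 2.51 to 2.64 for B2M. The knockdown changes, as values with no test, ran from -0.99 to -0.73 for HLA-B, -0.65 to -0.36 for HLA-C, -1.25 to -0.54 for HLA-E and -1.11 to -0.55 for B2M, while HLA-F without KYSE180 did not pass the filter. No member was called after knockdown under any alternative that allows a test, and 0 genes of the table were called in the fit as reported or under those alternatives.

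The heavy chain to B2M log2 ratio change with IFN-β was 0.26 to 0.42 with 1 line left out and -0.23 without HLA-B. The change of the HLA-C share, -0.75 percentage points with all lines, ran from -2.70 to 2.70 with 1 line left out and was 18.3 without HLA-B. That of HLA-F, 0.03 points, ran from -0.69 to 1.10 and was -0.36 with a pseudocount of 1 FPKM. Depth is unknown, so no floor can be given for values at 0.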
